A study of Mus musculus with 20 samples.

Results

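The proteasome subunit genes were examined intron by intron in long reads of nascent RNA from mouse erythroleukemia cells before and after erythroid induction. The list held 33 genes, taken by symbol, and 32 of them had introns in the deposited tables. Psmb7, of the beta ring, was not analysed here. Those 32 genes gave 287 of the 68794 introns tabulated for 8397 genes, and 106 of the 6537 introns in a second table that gives splicing intermediates and splice site scores. The 20S core accounted for 81 introns of 13 genes, the 19S cap for 197 introns of 18 genes, and Psme3, which belongs to neither, for the rest.

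MEL cells are an established mouse line of transformed red cell precursors that resume maturation when exposed to dimethyl sulfoxide (DMSO). The uninduced pool came from untreated MEL cells in growth medium. The induced pool came from MEL cells kept in 2% DMSO for 5 days. The labels list 4 long-read samples per condition, from 2 biological replicates each run on 2 PacBio instruments (RSII and Sequel). The tables give 1 value per pool, and which of these runs were added into it is not given in the sources used here. The RNA was bound to chromatin and had been depleted of polyadenylated RNA, which favours RNA still attached to polymerase. Neither group carried a genetic change by its labels, and cell density or passage is not given per sample. The other 12 of the 20 samples, from cells with an inserted human globin gene and from run-on sequencing, were not analysed here.

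The proteasome is the large protease that destroys proteins tagged with ubiquitin. Its 20S core is a stack of alpha and beta rings, with alpha subunits gating the entrance and catalytic sites on some of the beta subunits. The 19S cap recognises ubiquitin chains, removes them, and unfolds and feeds the substrate through a ring of ATPases. Maturing red cells use the ubiquitin system to clear proteins as they remodel, and proteasome genes are widely expressed in other tissues as well. As an intron is removed from a growing transcript, the spliceosome first cuts at the 5' splice site and then joins the exons at the 3' splice site. A long nascent read therefore shows each intron as spliced, unspliced or caught between the steps.

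Over all genes, a read being counted at each intron it covers, the uninduced pool held 416379 and the induced pool 279371 intron observations. Depth limited single introns: proteasome introns with any read had a median of 11 reads before and 7 after induction, and at most 74 and 46. As a check of the cell line, red cell genes were present and had more reads after induction (Hba-a1 from 209 to 1886, Alas2 from 61 to 1536, Slc4a1 from 0 to 817), while Gata1 had 91 and 128 and Klf1 9 and 11. Intervals are 95% intervals of single introns, Wilson's for a share and Newcombe's for a difference of shares. Reads added over the introns of a gene count a molecule more than once, so such sums carry no interval. Where a count was 0, the limit it allows was taken as 3 counts of the total. They and the tests cover counting error only, since reads were amplified and no replicate values enter. Every test compares the 2 pools of libraries and not the conditions as such.

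The splice sites of the introns on which the results turn are shown first, as the deposited second table lists them. They are the changed introns of Psmb6 and Psmd4, the introns with the lowest splicing, and Psma1 intron 5, whose scores were the lowest among the proteasome introns. Each line gives the 5' site (3 exon and 6 intron bases) or the 3' site (20 intron and 3 exon bases), 5' to 3' on the strand of the gene. Capitals mark the GT and AG at the intron's ends.
Psmb6 intron 1, 5' site: gggGTgagg
Psmb6 intron 1, 3' site: ttttacactattcttcccAGacc
Psmb6 intron 2, 5' site: tggGTgagc
Psmb6 intron 2, 3' site: ctgtttccgccatcctgcAGgtc
Psmb6 intron 3, 5' site: cagGTactt
Psmb6 intron 3, 3' site: cttccaaccccaccttctAGtat
Psmb6 intron 4, 5' site: cagGTcagg
Psmb6 intron 4, 3' site: tcccccctcccatctggcAGgtg
Psmd4 intron 3, 5' site: cacGTgagt
Psmd4 intron 3, 3' site: aacttcttttcccttccaAGttg
Psmd4 intron 6, 5' site: ctgGTaagc
Psmd4 intron 6, 3' site: cttgtcttgctctttaccAGgcc
Psmc4 intron 8, 5' site: aagGTttag
Psmc4 intron 8, 3' site: ctggttcctccctgtgccAGgta
Psma3 intron 4, 5' site: aaaGTaagt
Psma3 intron 4, 3' site: gtctcttctcttcctcccAGcat
Psma1 intron 5, 5' site: gcaGTatcc
Psma1 intron 5, 3' site: ggctccttaactagcttcAGaaa

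The first comparison asked whether proteasome introns were spliced to the same extent in nascent RNA before and after induction. The measure was co-transcriptional splicing efficiency (coSE), the spliced reads divided by spliced plus unspliced reads. Of 94 introns of 18 proteasome genes with at least 10 reads in each pool, 5 changed at an adjusted p under 0.05. In all, 4 introns of Psmb6 fell and 1 intron of Psmd4 rose. By the same two-sided Fisher's exact test with Benjamini-Hochberg adjustment over 4403 introns, 71 passed among all genes, or 1.61%, against 5.32% of the proteasome introns. Falls made up 1.25% of all introns tested and rises 0.363%. An unadjusted p under 0.05 was reached by 8 proteasome introns of 94, against 7.97% of all introns. No intron of the other 16 genes tested passed. Since introns of 1 gene are read on the same molecules, the 4 introns of Psmb6 are not separate observations. Falls were found in 30 genes of the whole table, and Psmb6 was 1 of 2 genes with at least 4 fallen introns.

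**Figure D1:**
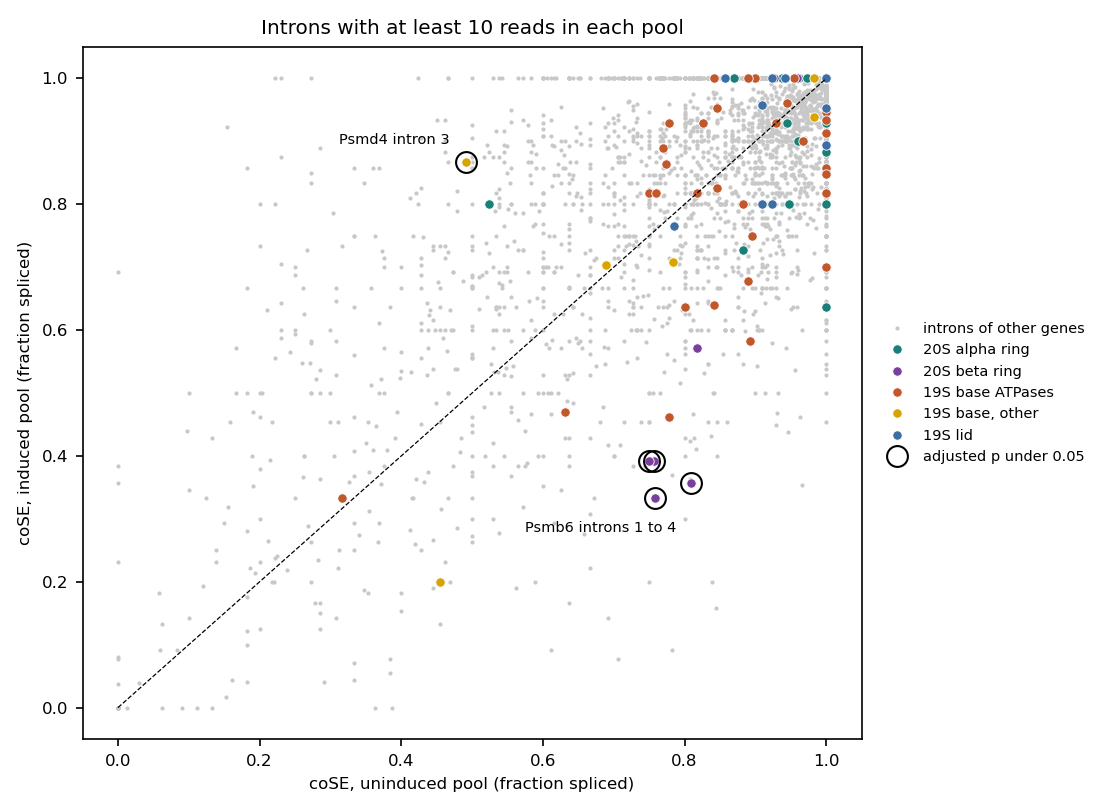
coSE of single introns in the uninduced pool (x axis) and the induced pool (y axis), as fractions of reads, for introns with at least 10 reads in each pool. Coloured points are the 94 proteasome introns by subgroup, grey points introns of other genes, black rings mark the 5 proteasome introns past the threshold, and the dashed line marks equal values; Psmb6 introns 1 to 4 lie well below the line and Psmd4 intron 3 above it, while most proteasome introns crowd the upper right corner.

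Psmb6 encodes the subunit of the beta ring that carries the caspase-like site, which cuts after acidic residues. The gene lies on the plus strand of chromosome 11 at chr11:70525367-70527858 (GRCm38), with 5 introns, all within the coding sequence, and no other annotated gene overlaps it. The nearest gene upstream on the same strand, Gltpd2, ends 4631 bases away. Introns 1, 3 and 5 are present in both annotated transcripts that span them, and introns 2 and 4 in 1 of 2.

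At Psmb6 intron 1 (chr11:70525496-70525884, 389 bases), 56 of 74 reads were spliced before and 18 of 46 after induction. The coSE thus went from 0.757 (interval 0.648 to 0.840) to 0.391 (0.264 to 0.535). The intervals of the pools do not overlap, and the difference of -0.365 (interval -0.518 to -0.185) had an adjusted p of 0.0103 by Fisher's exact test. Intron 2 (chr11:70525953-70526293, 341 bases) had 54 of 72 and 18 of 46 reads spliced, a difference of -0.359 (-0.512 to -0.177) with an adjusted p of 0.0190 by the same exact test. Intron 3 (chr11:70526426-70526543, 118 bases) had 47 of 62 and 13 of 39, a difference of -0.425 (-0.580 to -0.227), adjusted p 0.00414 by the exact test. Here coSE went from 0.758 to 0.333, with the smallest p among the proteasome introns. Intron 4 (chr11:70526674-70527178, 505 bases) had 38 of 47 and 10 of 28, the widest drop at -0.451 (-0.625 to -0.223), adjusted p 0.0150 by the exact test. At the last intron (chr11:70527324-70527436, 113 bases), 36 of 44 and 8 of 14 reads were spliced, a difference of -0.247 (-0.507 to 0.00841) that did not pass (adjusted p 0.778, exact test). With no coverage minimum, where 42074 introns entered the adjustment, introns 1, 2 and 4 lost their call at the same differences (adjusted p 0.0935, 0.170 and 0.137, exact test). Intron 3 kept it (adjusted p 0.0372, exact test).

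Both kinds of read moved at Psmb6. Unspliced reads numbered 18, 18, 15, 9 and 8 from intron 1 to intron 5 in the uninduced pool. In the induced pool they numbered 28, 28, 26, 18 and 6, in a pool with fewer reads over all genes. Added over the gene, spliced reads numbered 231 and then 67, and unspliced reads 68 and then 106. The read-weighted coSE of the gene was 0.773 before and 0.387 after induction. Among 1800 genes with at least 30 reads in each pool, only 4 had a more negative difference than Psmb6, at -0.385. The share of the pool's reads that lay on Psmb6 was 71.8 and 61.9 reads per 100000, a ratio of 0.862. At intron 1 alone, where a read of the gene is counted once, the ratio was 0.926 (exact interval 0.627 to 1.36), which spans 1. The pool totals used for this ratio still count a read at each intron it covers.

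**Figure D2:**
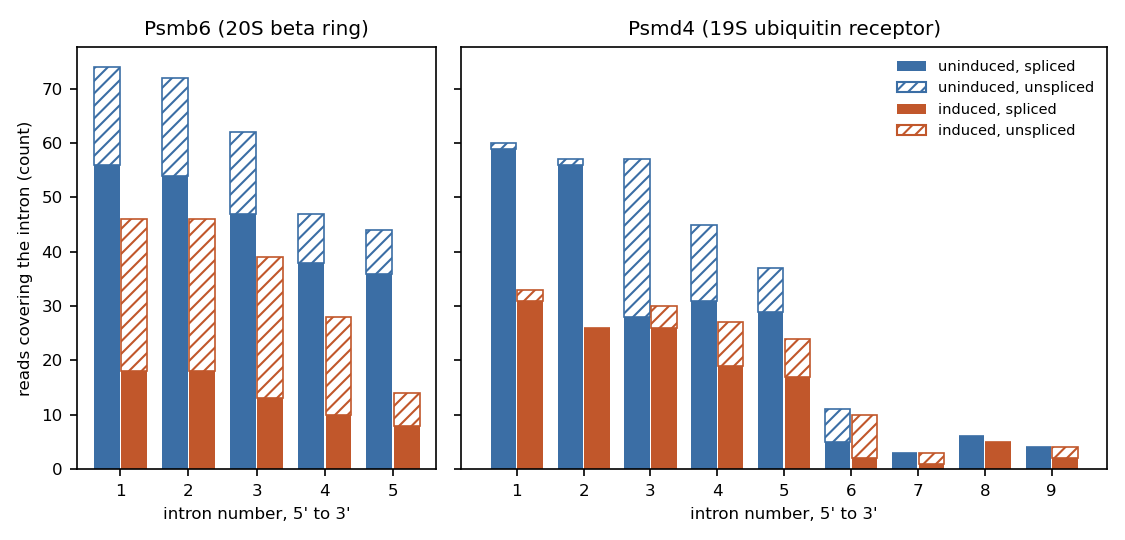
Reads covering each intron (y axis, count) of Psmb6 (left) and Psmd4 (right) by intron number from the 5' end (x axis), in the uninduced (blue) and induced (orange) pool, with spliced reads filled and unspliced reads hatched. In Psmb6 the unspliced part is larger than the spliced part in the induced pool at introns 1 to 4; in Psmd4 the unspliced part stands out at intron 3 of the uninduced pool, 29 of 57 reads.

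Of the remaining beta ring genes, only Psmb1 and Psmb3 had introns with enough reads to be tested, and none of these passed (adjusted p 1 at each, exact test). Psmb1, a structural subunit, had 177 of 186 intron reads spliced before and 55 of 55 after induction. Psmb3, also structural, had 128 of 131 and 50 of 50. Psmb2, structural as well, had 44 of 49 and 20 of 20. Psmb5, the chymotrypsin-like subunit and the main target of proteasome inhibitors, was covered by only 4 and 2 reads, all spliced. Psmb4, a structural subunit, was less spliced, with 35 of 52 reads (0.673) before and 6 of 8 after induction. Its intron 4 (chr3:94885034-94885659), with 7 of 13 reads spliced, was among the 5 lowest proteasome introns of the uninduced pool.

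The alpha ring genes encode the gate and outer rings of the core and were close to fully spliced. Psma1 had 201 of 204 reads spliced before and 72 of 76 after induction. Psma5 had 281 of 291 and 89 of 97, Psma3 141 of 156 and 76 of 81, and Psma7 174 of 183 and 62 of 62. Psma6 had 65 of 70 and 13 of 13. Among the alpha ring genes the value fell most at Psma4, with 109 of 111 and 43 of 52 reads (0.982 and 0.827). Psma2 followed, with 87 of 89 and 26 of 30 (0.978 and 0.867). Psma5 and Psma1 were lower by less, with differences of -0.0481 and -0.0379, and Psma3, Psma6 and Psma7 were higher. At Psma4 intron 3 (chr9:54952384-54952678, 295 bases), 16 of 16 reads and then 7 of 11 were spliced. The difference of -0.364 (interval -0.646 to -0.0766) had an unadjusted p of 0.0188 and an adjusted p of 0.410 by Fisher's exact test. Psma3 intron 4 (chr12:70984595-70984671), at 77 bases one of the shortest, went the other way, from 11 of 21 to 8 of 10, a difference of 0.276 (-0.0887 to 0.522) with an adjusted p of 1 by the exact test. The best covered alpha ring intron, Psma7 intron 1 (chr2:180039480-180042277), had 45 of 48 and 19 of 19 reads spliced.

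In the induced pool, 6 of the 13 core genes (Psma6, Psma7, Psmb1, Psmb2, Psmb3 and Psmb5) had no unspliced read among 202. At the best covered intron of these genes, Psmb1 intron 2, that was 0 of 24 reads, which allows an unspliced share of up to 12.5%. In the uninduced pool that held only for Psmb5. In the cap it held for 1 of 18 genes in the induced pool (Psmd7, with 12 reads) and for none before induction. Among all genes with any read it held for 41.4% in the induced pool, where genes had a median of 13 reads. With at least 30 reads in that pool it held for 3 of 9 core genes (Psma7, Psmb1 and Psmb3), 0 of 14 cap genes and 9.37% of all 2146 genes; these shares are descriptions of counts at few genes and were not tested. Leaving Psmb6 aside, the core genes together had a read-weighted coSE of 0.948 before and 0.941 after induction; with it, the values were 0.919 and 0.808. Among the 24 core introns tested outside Psmb6, none passed by Fisher's exact test, and 1 (Psma4 intron 3) had an unadjusted p under 0.05.

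**Figure D3:**
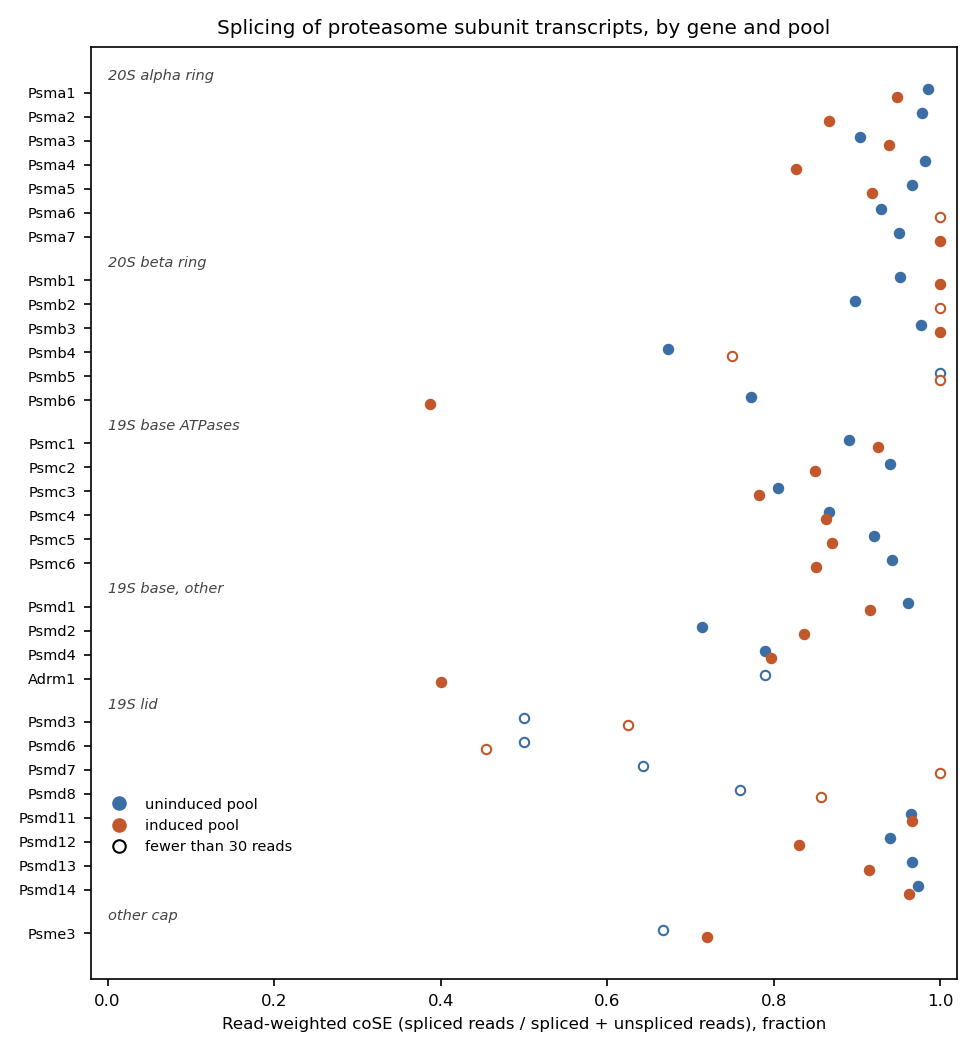
Read-weighted coSE (x axis, fraction of intron reads spliced) of the 32 proteasome genes, grouped by place in the complex, in the uninduced (blue) and induced (orange) pool; open circles have fewer than 30 reads. Among genes with at least 30 reads in each pool, Psmb6 has the values that lie farthest apart, at 0.773 and 0.387, and most other core genes sit above 0.8 in both pools.

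The ATPases of the 19S base, which unfold substrates, contributed 41 of the tested introns, and none of them passed the threshold. Psmc1 had 220 of 247 reads spliced before and 148 of 160 after induction. Psmc5 had 92 of 100 and 67 of 77. Psmc2 had 281 of 299 and 124 of 146 (0.940 and 0.849), and Psmc6 258 of 274 and 125 of 147 (0.942 and 0.850). For both genes the gene values were about as far apart, at -0.0905 and -0.0913. Psmc3, with 124 of 154 and 190 of 243, and Psmc4, with 142 of 164 and 188 of 218, had nearly equal values in the 2 pools. Unadjusted p-values under 0.05 were found at Psmc1 intron 2, with 35 of 35 and 23 of 27 (p = 0.0315), and Psmc2 intron 9, with 25 of 28 and 7 of 12 (p = 0.0386), by the exact test. Their adjusted p-values were 0.511 and 0.553 by Fisher's exact test; both introns were named for these p-values after they were seen. Psmc1 introns 6 and 7 had some of the largest positive differences, with 16 of 19 and 14 of 14 reads, and 14 of 18 and 13 of 14, each with an adjusted p of 1 by the exact test.

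Psmc4 intron 8 (chr7:28042508-28042649, minus strand, 142 bases, held by 3 of 4 annotated transcripts across it) was the least spliced proteasome intron of the uninduced pool. Only 6 of 19 reads were spliced there and 8 of 24 in the induced pool, coSE values of 0.316 (interval 0.154 to 0.540) and 0.333 (0.180 to 0.533). The pools gave nearly the same value, with a difference of 0.0175 (-0.254 to 0.275). The intron just before it in the same gene, intron 7 (82 bases), had 11 of 13 and 19 of 23 reads spliced. The deposited score of the 5' site of intron 8, 2.78, was above that of only 2.26% of the introns scored, while its 3' site score of 9.44 was above 62.4%.

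The other subunits of the base include a scaffold pair and the ubiquitin receptors. Psmd4 encodes the receptor Rpn10, whose transcript is known for alternative splicing in the mouse. At Psmd4 intron 3 (chr3:95035325-95035809, minus strand, 485 bases, coding, held by 4 of 5 annotated transcripts across it), 28 of 57 reads were spliced before and 26 of 30 after induction. Its coSE went from 0.491 (interval 0.366 to 0.617) to 0.867 (0.703 to 0.947), a rise of 0.375 (0.169 to 0.524), with an adjusted p of 0.0366 by Fisher's exact test. The call was lost with no coverage minimum (adjusted p 0.315, exact test), with a chi-square test (adjusted p 0.0781) and with the uninduced reads thinned to the depth of the induced pool (adjusted p 0.151). The rise was the same with no minimum and with the chi-square test, and 0.342 with thinned reads. Its neighbours did not move with it. Introns 1 and 2 were almost fully spliced, at 59 of 60 and 56 of 57 reads before and 31 of 33 and 26 of 26 after induction. Introns 4 and 5 were spliced in 31 of 45 and 29 of 37 reads, and then in 19 of 27 and 17 of 24. As a whole the gene was level, at 0.789 and 0.796.

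Psmd4 intron 6 (chr3:95034027-95034565, 539 bases) was among the least spliced introns in both pools, with 5 of 11 reads and 2 of 10. The difference of -0.255 had an interval from -0.556 to 0.138. Psmd1, a scaffold subunit, had 124 of 129 and 108 of 118 reads spliced. Psmd2, the other scaffold subunit, had 70 of 98 and 82 of 98, gene values of 0.714 and 0.837. Adrm1, which encodes the receptor Rpn13, had 15 of 19 reads spliced before and 16 of 40 after induction. No single Adrm1 intron had 10 reads in both pools. Its reads lay on different introns: intron 1 held 10 of the 19 reads before and 7 of the 40 after induction. Introns 1, 8 and 9 had the same value in both pools. Introns 2, 3 and 4 were lower after induction, with 3 of 3 and 6 of 12, 1 of 1 and 1 of 9, and 1 of 1 and 1 of 3 reads spliced.

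The lid, which holds the deubiquitinase Psmd14 on a scaffold of helical subunits, had 18 tested introns and no call. Psmd11 had 221 of 229 and 228 of 236 reads spliced, and Psmd14 146 of 150 and 102 of 106. Psmd13 had 85 of 88 and 64 of 70, and Psmd12 47 of 50 and 49 of 59 (0.940 and 0.831). Psmd11 intron 9 (chr11:80465077-80469801, 4725 bases) had one of the largest positive differences, with 12 of 14 and 15 of 15, adjusted p 1 by the exact test. The best covered lid intron, Psmd11 intron 2, was spliced in 33 of 33 and 28 of 28 reads. Psmd3, Psmd6, Psmd7 and Psmd8 had between 7 and 28 reads in a pool, with values from 0.455 to 1. Psme3, which encodes a cap that activates the core without ubiquitin, had 18 of 27 and 36 of 50 reads spliced. None of its introns reached 10 reads in both pools; the best covered one, intron 6, had 3 and 8 reads.

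Over the 22 proteasome genes with at least 30 reads in each pool, the difference of the gene values was below 0 for 14 and above 0 for 8, with a median of -0.0306. Over all 1800 such genes the median was 0.0177, with 678 below and 1100 above 0. A value lower by at least 0.1 was seen for 4 of the 22 (Psmb6, Psma4, Psma2 and Psmd12), against 9.67% of all genes. A value higher by at least 0.1 was seen for 1 (Psmd2), against 18.2% of all genes. Over the 94 tested introns the median difference was 0, with 29 higher, 40 lower and 25 equal. Among all introns tested 1879 were higher, 1534 lower and 990 equal, again with a median of 0. These lists are described, not tested, since genes and introns are not replicates.

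The level of splicing in the core was then set beside that in the cap, over introns with at least 10 reads. In the uninduced pool the median coSE was 1 over 66 core introns and 0.982 over 89 cap introns, against 0.933 over all 9982 introns. In the induced pool it was 0.95 over 29 core and 0.929 over 70 cap introns, against 0.947 over all 6333. Introns with no unspliced read made up 51.5% of core and 48.3% of cap introns in the uninduced pool (37.0% of all), and 48.3% and 37.1% in the induced pool (43.1% of all). The order of core and cap in the induced pool depended on Psmb6 and on the weighting. With reads added together the core was lower by 0.103. Over introns with at least 20 reads the core median was lower by 0.522. The core introns with that many reads were Psma5 intron 1, Psmb1 intron 2, Psmb3 intron 1 and Psmb6 introns 1 to 4. Their median was thus a value of Psmb6 (0.391). In the uninduced pool the core was above the cap by 0.0175 in the medians, 0.0191 with reads added together, 0.0178 over gene means, 0.0216 as a mean over introns and 0.00545 over introns with at least 20 reads. The medians were equal with no coverage minimum and over introns found in every annotated transcript that spans them. Within length classes the order was mixed in that pool. For introns of up to 200 bases the median was 0.818 over 7 core and 0.876 over 18 cap introns, and for those over 2000 bases 0.962 over 21 and 1 over 28. For introns over 200 and up to 500 bases it was 1 over 11 core and 0.840 over 14 cap introns. For those over 500 and up to 2000 bases both medians were 1. By ring and subcomplex the uninduced median was 1 in the alpha ring and the lid, 0.935 in the ATPases, 0.913 in the beta ring and 0.908 in the other base subunits. Neither pool thus gave the same order of core and cap in every such comparison.

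Splicing varied with intron length in the proteasome genes, as it did in the whole table. In the uninduced pool the median coSE was 0.864 for 25 proteasome introns of up to 200 bases. It was 0.927 for 25 introns over 200 and up to 500 bases. It was 1 for 56 introns over 500 and up to 2000 bases and for 49 longer ones. The medians over all introns in these classes were 0.833, 0.838, 0.929 and 1. In the induced pool the proteasome medians were 0.800, 0.818, 1 and 1, and those of all introns 0.833, 0.867, 0.946 and 1. Proteasome introns were shorter, with a median of 744 bases against 1226 in the table, and cap introns (680 bases) were shorter than core introns (1178 bases). Of the 287 introns, 280 lay in the coding sequence, 6 in the 5' and 1 in the 3' untranslated region.

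A second readout was the amount of nascent RNA on each gene, taken as its share of all intron reads of the pool. All 12 core genes with at least 30 reads had a ratio of induced to uninduced share below 1, with a median of 0.530 and a range from 0.229 to 0.862. Among all 3936 genes with that many reads, 53.5% had a ratio below 1, with a median of 0.923. Of the 16 cap genes, 6 were below 1, with a median of 1.17. With 1 pool per condition these ratios have no replicate error and were not tested, and reads per intron also depend on how far molecules extend. A share falls when other genes rise: in this pool red cell genes took more of the reads, and without globin genes in the total the core median was 0.538. With only the best covered intron of each gene counted, a setting chosen after seeing the data, all 12 core genes were again below 1, with a median of 0.624, and 5 of the 16 cap genes were, with a median of 1.11.

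A share at least 2-fold lower was seen for 4 core genes (Psma5, Psma6, Psmb1 and Psmb4) and 1 cap gene (Psmd8), against 26.2% of all genes. The best covered of these, Psma5, had 69.9 and 34.7 reads per 100000, a ratio of 0.497. At its best covered intron it had 47 and 20 reads, a ratio of 0.634 with an exact interval from 0.356 to 1.09. Psmb1 had 44.7 and 19.7, a ratio of 0.441, and 59 and 24 reads at its best covered intron, a ratio of 0.606 (0.361 to 0.990). Psma7 just missed at 44.0 and 22.2, a ratio of 0.505. A share at least 2-fold higher was seen for Psmc3, Adrm1 and Psme3, against 18.9% of all genes. Psmc3 had 37.0 and 87.0 reads per 100000, a ratio of 2.35, and 31 and 44 reads at its best covered intron, a ratio of 2.12 (1.31 to 3.47). Psmc4 had 39.4 and 78.0, a ratio of 1.98, and 29 and 33 reads at its best covered intron, a ratio of 1.70 (0.998 to 2.90). Adrm1 had 4.56 and 14.3, a ratio of 3.14, and Psme3 6.48 and 17.9, a ratio of 2.76. At the best covered intron Adrm1 had 10 and 7 reads, a ratio of 1.04 (0.337 to 3.04). The cap was thus not uniform: among the ATPases Psmc2 stood at 0.728 and Psmc6 at 0.800, while the lid genes Psmd11 and Psmd12 stood at 1.54 and 1.76.

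**Figure D4:**
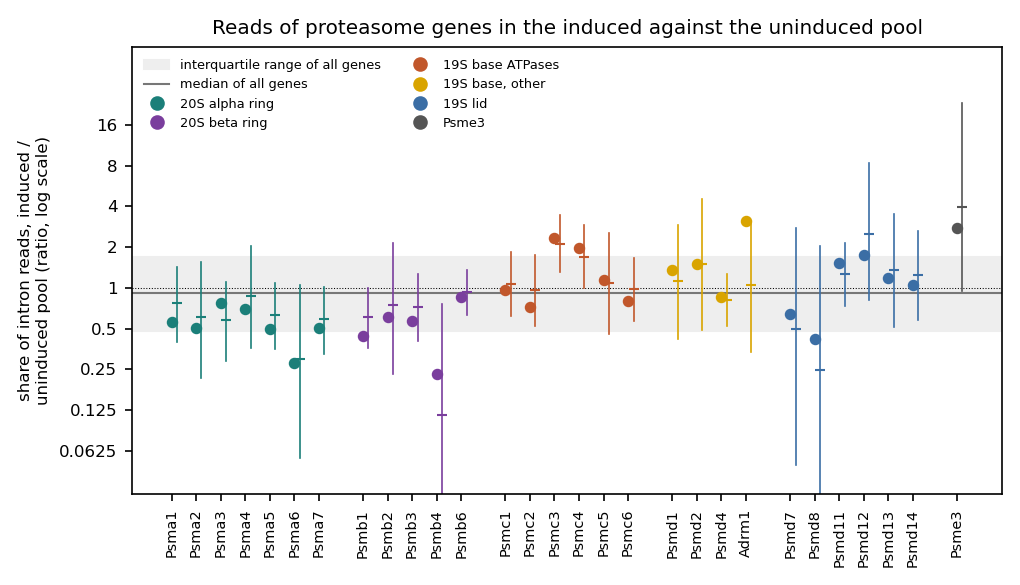
Share of intron reads in the induced pool divided by that in the uninduced pool (y axis, log scale) for the 29 proteasome genes with at least 30 reads over both pools, by place in the complex. Dots add all introns of a gene; the dash beside each dot is the ratio at the best covered intron, with its exact 95% interval for counting error; the grey line is the median of all 3936 genes (0.923) and the band their interquartile range. The dots of all 12 core genes lie below 1, from 0.229 to 0.862, and those of the cap genes spread from 0.417 to 3.14.

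The second table allowed splicing intermediates to be counted, which are understood here as RNAs cut at the 5' splice site with exons not yet joined. The measure, NIC, is intermediates divided by intermediates plus spliced reads. Over the proteasome introns, 63 of 2133 such reads were intermediates before (2.95%) and 28 of 753 after induction (3.72%). The values over all introns were 2.71% and 4.35%. No proteasome intron of 43 with values in both pools passed Fisher's exact test after Benjamini-Hochberg adjustment, and 1 had an unadjusted p under 0.05. Among all 2039 introns tested 0.0981% passed, and 1.67% had an unadjusted p under 0.05. At a median of 15 reads per proteasome intron in the induced pool, a count of 0 intermediates still allows a NIC of up to 20%.

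The proteasome intron with the unadjusted p was the last intron of Psmb6, with 0 of 24 intermediates before and 3 of 7 after induction (p = 0.00779, adjusted p 1, exact test). A count of 0 of 24 allows a share of up to 12.5%. The highest NIC of the uninduced pool was at Psmd4 intron 6, with 7 of 11 reads (0.636, interval 0.354 to 0.848), the intron that was also poorly spliced. It was followed by Psma1 intron 5, with 4 of 16 (0.250, 0.102 to 0.495), and by Psmd11 intron 9, Psma5 intron 7 and Psmb3 intron 3, with 2 of 11, 3 of 22 and 3 of 24. In the induced pool the highest were Psmc3 introns 4 and 5, with 5 of 25 and 2 of 17, Psmc4 intron 7, with 2 of 14, Psmd4 intron 4, with 2 of 20, and Psmc6 intron 2, with 1 of 10. The ranked introns of the induced pool lie in the 19S base, which also held most of the cap's reads. Psmc4 intron 8, with 3 of 6, and the last intron of Psmb6, a core gene, with 3 of 7, had higher NIC values in the induced pool than these but too few reads to be ranked.

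Splice site scores, taken to be higher for sites nearer the usual sequence, placed the proteasome introns near the rest. The median score of the 5' site was 8.98 over the 106 proteasome introns and 8.78 over all 6537, and that of the 3' site 8.33 and 8.70. All proteasome introns in the table began with GT and ended with AG, against 98.6% and 99.3% of all. The Psmb6 introns had 5' scores from 5.50 to 8.17 and 3' scores from 5.78 to 11.2. The 5' site of intron 1 was above only 9.48% of all introns, and the 3' site of intron 3 above 12.6%, while introns 2 and 4 had 3' sites above 86.2% and 75.0%.

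Psma1 intron 5 (chr7:114270404-114271053, minus strand, 650 bases, coding, in both annotated transcripts that span it) stood apart, with scores of -5.12 and -2.81, above only 0.260% and 0.291% of introns. It was nevertheless spliced in 20 of 20 reads of the uninduced and 5 of 5 of the induced pool. These counts leave out intermediates, of which this intron had 4 of 16 reads in the uninduced pool (NIC 0.250). Its first 6 bases read GTATCC, and TCCTTAAC lies within its last 20 bases. Those are the letters of the 5' site and the branch site of minor-class (U12-type) introns, which a separate spliceosome removes. On the strand of the gene, GTATCC at that place was found in 27 of 6537 introns (0.413%), TCCTTAAC in 8 (0.122%), and both in 3 (0.0459%). This search was chosen after the sequence had been seen, and a match describes the letters only.

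**Figure D5:**
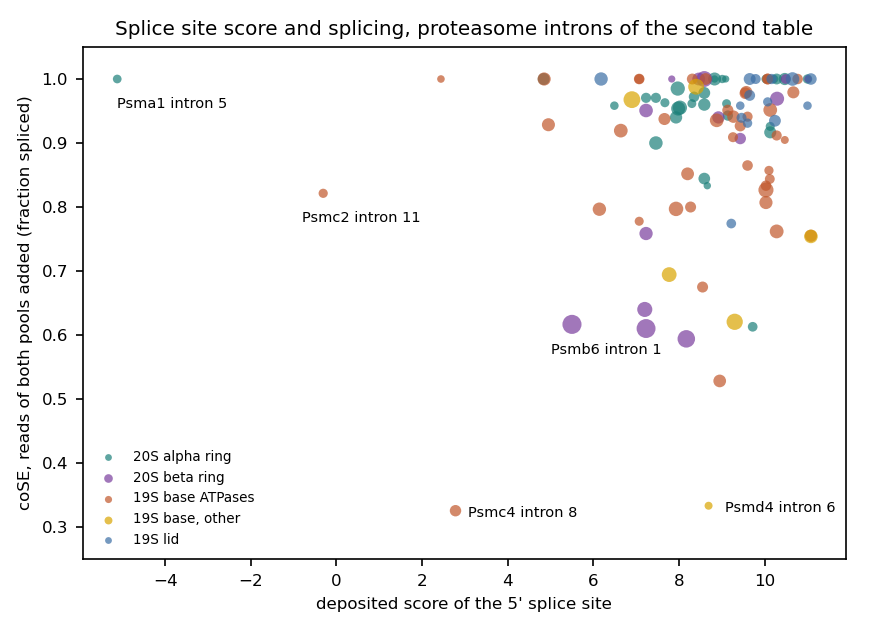
Deposited score of the 5' splice site (x axis) against coSE with the reads of both pools added (y axis, fraction spliced) for the 106 proteasome introns of the second table; point area grows with the number of reads and colour gives the subgroup. Psma1 intron 5 is at the far left, with no unspliced read. Psmc4 intron 8 has a low score and a low coSE. The Psmb6 introns, with low coSE, have scores from 5.50 to 8.17, below the proteasome median of 8.98. Some other introns with low scores had no unspliced read, such as Psmc1 intron 9 (score 2.44, 19 of 19 reads spliced) and Psmc1 intron 3 (4.85, 57 of 57). A link of score and coSE was not tested.

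Other genes of the pathway were listed under 50 symbols (immunoproteasome subunits, other caps, assembly chaperones, ubiquitin genes and delivery factors). Some were listed under an older and a newer name, such as Shfm1 and Sem1, and 40 genes had introns in the table. Of their 29 introns tested, in 11 genes, none passed Fisher's exact test after adjustment and none had an unadjusted p under 0.05. The median difference was 0.00568, with 15 higher, 7 lower and 7 equal. Pomp, the chaperone that matures the core, had 100 and 56 reads at coSE values of 0.970 and 0.982. Usp14, a deubiquitinase that docks on the cap, had 272 and 116 reads at 0.963 and 0.940. The ubiquitin genes Ubb and Rps27a had 591 and 369 reads at 0.986 and 0.997, and 688 and 270 reads at 0.924 and 0.933.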

How the data were processed

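Both tables are the authors' own, with 1 line per intron and pool. The first holds raw counts of spliced and unspliced reads, per the file headers. The second holds deposited counts of spliced reads and intermediates, NIC as a deposited fraction, GC content as a deposited percent (not used for a result), and a deposited score per splice site. The submitters' processing notes name cutadapt, minimap2, SAMtools, bedtools and Bowtie and the builds mm10 and dm3, with no role; filters, the merging of unspliced reads and the scoring program are not given in the sources used here. The pools were taken as the untreated and treated long-read groups from their names.

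Introns were matched to GENCODE M21 (release 21, GRCm38), with 100% on annotated introns, and positions are 1-based. With Python 3.11.15, scipy 1.17.1 and statsmodels 0.14.6, each intron with at least 10 reads in both pools was tested by a two-sided Fisher's exact test, adjusted by Benjamini-Hochberg over the whole table (threshold 0.05). The test was checked on simulated data. Members and lists were chosen with earlier results of these data known. Named introns are those past the threshold, the 5 largest rises and falls, the 5 lowest coSE and 5 highest NIC per pool (at least 10 reads), and the best covered per subgroup. Splice sites are printed for the changed introns and some of the others.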

Additional observations from a re-analysis of the deposited data

How the results depend on the processing

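No paired analysis was possible because the tables give 1 pooled value per condition; for the same reason leaving out single replicates was not run. Of 94 proteasome introns, the 5 called became 1 (Psmb6 intron 3) of 262 with no coverage minimum, where 42074 introns entered the adjustment, and 2 (Psmb6 introns 1 and 3) of 53 among introns found in every annotated transcript that spans them, which leaves out Psmb6 introns 2 and 4 and Psmd4 intron 3. Calls over all introns, 71 in the main analysis, numbered 36 and 31 under these settings. With at least 20 reads, a chi-square test, thinned uninduced reads or the second table's spliced counts, 5, 4, 4 and 5 introns were called; the call lost by the chi-square test and by thinning was Psmd4 intron 3. The median difference of 0 became -0.0630 with reads added together, -0.0221 as the median of gene means and -0.0422 as a mean over introns. The core minus cap difference of medians in the uninduced pool, 0.0175, became 0.0455 without the genes with most reads (Psmb6 and Psmd11), 0.00545 with at least 20 reads, and 0 with no coverage minimum and over introns of every transcript. In the induced pool, 0.0214 reversed to -0.522 with at least 20 reads, -0.103 with reads added together and -0.0184 as a mean, and became 0.124 over gene means, 0.111 without Psmb6 and Psmd11, and 0.0636 over introns of every transcript. The cap's median read ratio of 1.17 became 1.26 when centred on the median of all genes. The core's, 0.530, became 0.624 at the best covered intron of each gene, a setting chosen after seeing the data. No proteasome intron had a NIC call under any setting. Depth limits single introns: with 10 reads, a coSE of 1 still allows an unspliced share of up to 30%.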

Other observations

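Some pathway genes with few reads had different values in the 2 pools, given here as values since no intron of theirs reached 10 reads in both. Psmb10, an immunoproteasome subunit, had 18 of 21 intron reads spliced before and 1 of 9 after induction. Nfe2l1, the factor that raises proteasome genes when the protease is blocked, went the other way, with 1 of 9 and 14 of 14. Both were picked after their values were seen. Psme1, of the interferon-induced cap, had 31 reads before and 0 after induction, while its partner Psme2 had 55 and 37. Uba6, a ubiquitin-activating enzyme, had 50 and 127 reads.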
